A study of Mus musculus with 6 samples.

Results

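The genes described here are the D cyclins, their kinase partners and the proteins that oppose them at the start of the cell cycle. They are Ccnd1, Ccnd2, Ccnd3, Cdk4, Cdk6, Cdkn1b, Cdkn1c, Cdkn2c, Rb1 and Rbl2, a list of 10 genes taken by name. The list was made with earlier results of these data known. Every probe set of these genes that the platform annotation pairs with 1 symbol was read separately, which gave 27 of the 34958 single-symbol probe sets and of the 45101 probe sets in all. A probe set is the group of short probes that together measure 1 stretch of transcript, so several probe sets can report on the same gene and are not replicates of it. All levels are log2 values made with GCRMA, on which a difference of 1 is a change of 2-fold. Where 3 values of a group follow each other, they are in the order of arrays A, B and C.

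RNA came from whole liver of C57BL/6 mice, taken 18 hours after partial hepatectomy, an operation in which part of the liver is removed and the remnant regrows. The Cre plus group (n = 3 arrays, A, B and C) is Socs3 fl/fl with the Alb-Cre transgene, in which the albumin promoter drives Cre in hepatocytes and removes Socs3 there. The Cre minus group (n = 3 arrays, A, B and C) is Socs3 fl/fl littermates without Alb-Cre. The RNA on all 6 arrays therefore came from livers with the floxed allele that had the operation. Unoperated livers, and livers with Alb-Cre but an unfloxed Socs3, are not analysed here, so an effect of Cre itself or a difference from before surgery cannot be told apart from the comparison made. Ages are not given in the sources used here. The labels do not state that each array is a separate mouse, so each p-value speaks of the spread among these arrays, some of which may be technical.

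D-type cyclins are the link between growth signals and the cell cycle. They bind CDK4 or CDK6, and the active kinase phosphorylates the retinoblastoma protein and its relatives, which releases E2F transcription factors and lets the cell pass from G1 into DNA synthesis. Inhibitors of the INK4 family block CDK4 and CDK6 directly, and those of the CIP/KIP family bind cyclin-CDK complexes. In the regenerating liver, hepatocytes leave quiescence, and induction of cyclin D1 is the best known marker of their passage through G1.

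Of the 27 probe sets, 16 were over 4 (log2) in 3 or more of the 6 arrays and were tested, covering 8 of the 10 genes. The 11 others lay near background and are given as values only. Cdkn1c and Cdkn2c had no tested probe set. On each of the 3 Socs3 probe sets the highest Cre plus value lay below the lowest Cre minus value, and which of them lie in the deleted part is not known here. The dimmest of them did not pass the filter for testing, at 3.81 to 4.45 in Cre minus and 3.02 to 3.45 in Cre plus. The others are _x_at probe sets, a kind that can bind related transcripts. On the brightest Socs3 probe set, the Cre plus arrays had 7.44, 6.69 and 7.47 and the Cre minus arrays 9.09, 9.30 and 9.24. The hepatocyte markers Alb, Ttr, Apoa1, Apob, Hnf4a, Asgr1, Cps1 and Tat were all present, with a mean log2 value of 13.61 to 13.64 in Cre minus and 13.49 to 13.67 in Cre plus. Of these 8 markers, 3 were higher and 5 lower in Cre plus, with Cps1 at -0.50 ± 0.18 (SE) at an unadjusted p under 0.05. The groups did not overlap for Asgr1 (-0.23 ± 0.10) and Ttr (-0.05 ± 0.05), which were lower, and for Hnf4a (0.11 ± 0.06), which was higher. Over all tested probe sets, the groups did not overlap in 11.0% with Cre plus lower and in 8.78% with Cre plus higher. Array Cre plus B correlated with the Cre minus arrays at 0.991 to 0.993, above its correlations of 0.990 and 0.987 with Cre plus A and C. Cre plus C had the lowest correlations with Cre minus, at 0.983 to 0.987. The 3' minus 5' difference of the Actb control probe sets, a sign of RNA quality, was 1.33 to 1.34 in Cre minus and 1.27 to 1.35 in Cre plus on the log2 scale.

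Among the 16 tested probe sets, lower values in Cre plus were found for cyclin D1 and cyclin D3. For cyclin D2, the kinases, the inhibitor p27 and the pocket proteins the intervals include 0. Some of these intervals, such as -0.43 to 0.41 for Rb1, also include the Ccnd3 difference of -0.27. They therefore do not show that these genes differ less than cyclin D3. None of the 16 passed an adjusted p under 0.05 in limma, where 0.0129% of all 15563 tested probe sets passed. With no adjustment, 4 of 16 were lower at p under 0.05, against 7.18% of all tested probe sets, and 0 of 16 were higher, against 6.12%. These 4 are the 3 probe sets of Ccnd1 and 1 of Ccnd3, so they stand for 2 genes. The genes were chosen with earlier results of these data known. The counts here therefore describe the list and are no independent test of it. Without Cre plus B, the Cre plus array most like Cre minus, 5 of 16 were lower at this threshold (1 Ccnd2 probe set was added) against 8.62% of all, and again none passed after adjustment. The groups did not overlap, with Cre plus lower, in 3 of 16 probe sets against 11.0% of all, and with Cre plus higher in 0 of 16 against 8.78%. In all, 12 of the 16 had lower and 4 higher means in Cre plus, beside 51.8% lower and 48.2% higher of all tested probe sets. The 3 probe sets of Ccnd1 are among the 12. The median log2 fold change of the 16 was -0.09, beside a median of -0.0043 over all tested probe sets. The SD was larger in Cre plus than in Cre minus in 8 of the 16, beside 62.5% of all.

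**Figure D1:**
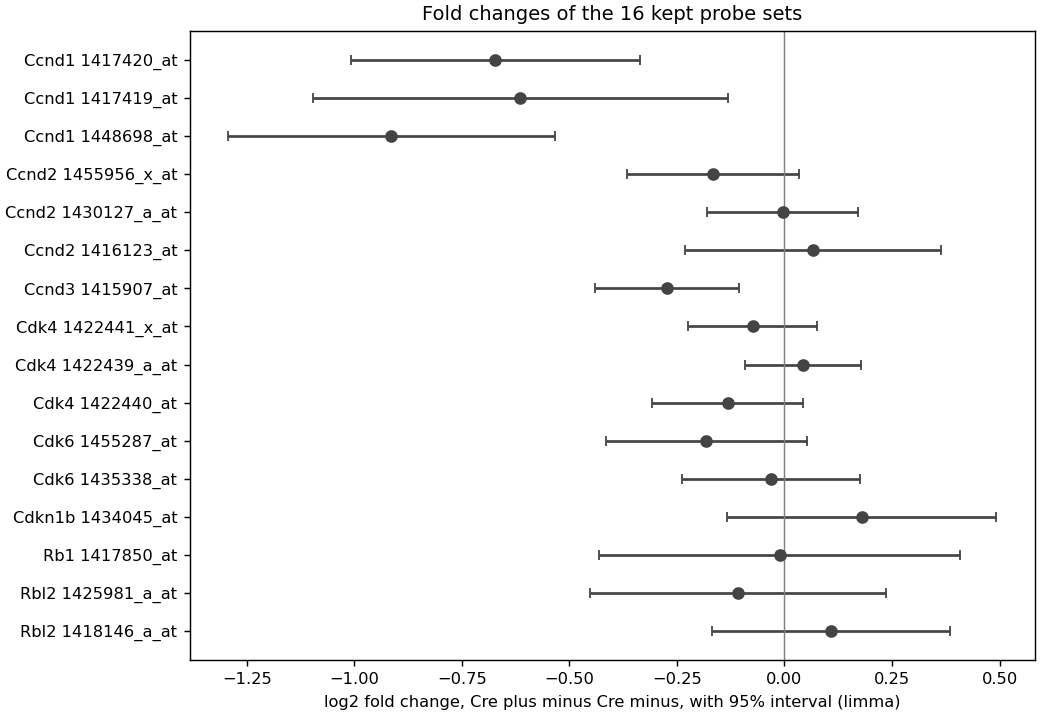
Log2 fold changes of the 16 tested probe sets, Cre plus minus Cre minus (horizontal axis), drawn with 95% intervals from limma as bars and 1 probe set per line. The intervals of the 3 Ccnd1 probe sets and of Ccnd3 lie below 0, and the other 12 intervals include 0.

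Ccnd1 encodes cyclin D1, the D cyclin most closely tied to hepatocyte proliferation. All 3 of its probe sets were above the filter in every array. On the brightest, 1417420_at, the log2 values were 8.96, 8.89 and 9.19 for Cre minus and 8.16, 8.58 and 8.29 for Cre plus. Every Cre plus array was below every Cre minus array, and Cre plus B was the highest of its group. The mean was 9.01 ± 0.16 (SD, n = 3) in Cre minus and 8.34 ± 0.22 (SD, n = 3) in Cre plus. This gives a log2 fold change of -0.67 ± 0.14 (SE), or 62.7% of the Cre minus level (95% interval 49.7% to 79.2%), with limma's adjusted p = 0.192.

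The largest Ccnd1 difference was on 1448698_at. Its values were 7.11, 6.82 and 7.31 for Cre minus and 6.00, 6.36 and 6.14 for Cre plus. The groups again did not overlap, and Cre plus B again lay nearest to Cre minus. Cre plus B was the Cre plus array nearest to the Cre minus mean in 42.6% of all tested probe sets, and in 51.1% of those lower at an unadjusted p under 0.05, so this order is common on these arrays. The log2 fold change was -0.91 ± 0.15 (SE), or 53.1% of Cre minus (95% interval 40.8% to 69.0%), with limma's adjusted p = 0.139.

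The third Ccnd1 probe set, 1417419_at, had 8.02, 7.65 and 8.09 for Cre minus and 7.10, 7.67 and 7.15 for Cre plus. Here the groups overlapped, because Cre plus B (7.67) was just above Cre minus B (7.65), while Cre plus A and C were below every Cre minus array. The log2 fold change was -0.61 ± 0.20 (SE), 65.3% of Cre minus (95% interval 46.8% to 91.3%), with limma's adjusted p = 0.300. The fold change of this probe set was -0.80 when Cre plus B was left out and -0.51 when Cre plus A was. It no longer had an unadjusted p under 0.05 without Cre minus A, without Cre minus C, without Cre plus A or without Cre plus C.

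**Figure D2:**
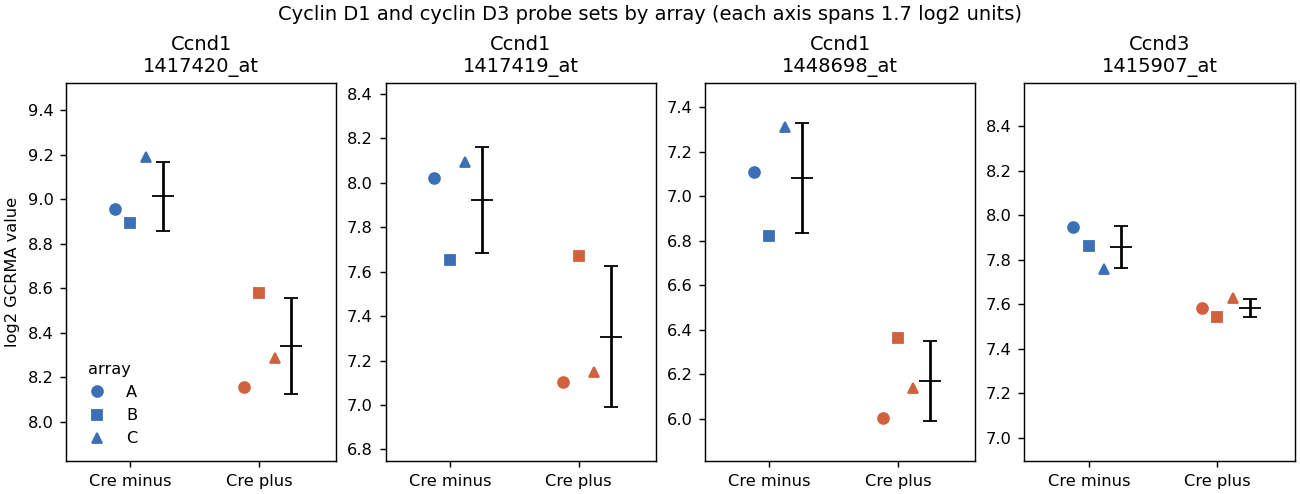
Log2 GCRMA values of the 3 Ccnd1 probe sets and the tested Ccnd3 probe set in each array (points, with A, B and C as circle, square and triangle), with the group mean and SD beside them. Each vertical axis has its own range but the same span. Cre plus B is the highest Cre plus array on all 3 Ccnd1 probe sets and the lowest on Ccnd3.

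Set against the Cre minus mean of the same probe set, the 3 Cre plus arrays had the following cyclin D1 values. The differences in the order 1417420_at, 1417419_at and 1448698_at were -0.86, -0.82 and -1.08 in Cre plus A. They were -0.73, -0.77 and -0.94 in Cre plus C. In Cre plus B they were -0.44, -0.25 and -0.72. Within Cre minus the differences ran from -0.27 to 0.23, with B the lowest on all 3 probe sets and C the highest. Socs3 on its brightest probe set did not follow this order, since Cre plus B had the lowest Socs3 value of the group (6.69) and the highest Ccnd1 values.

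**Figure D3:**
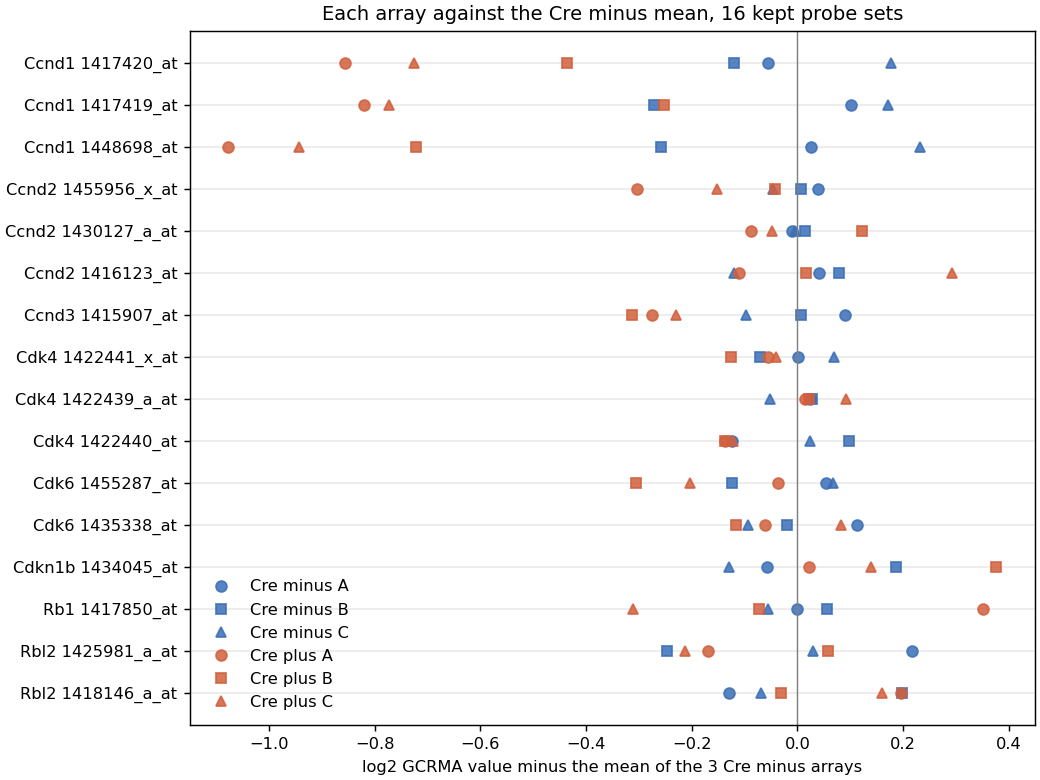
Value of each array minus the mean of the 3 Cre minus arrays of the same probe set (horizontal axis, log2) for the 16 tested probe sets, with colour for the group and shape for the array letter. The groups are apart on 1417420_at and 1448698_at of Ccnd1 and on Ccnd3, where the Cre plus arrays lie close together. On the 13 other lines, 1417419_at of Ccnd1 included, the groups overlap.

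Ccnd3 encodes cyclin D3, a D cyclin found in many differentiated tissues. Its tested probe set, 1415907_at, had 7.95, 7.86 and 7.76 for Cre minus and 7.58, 7.54 and 7.63 for Cre plus. The groups did not overlap. The log2 fold change was -0.27 ± 0.07 (SE), or 82.8% of Cre minus (95% interval 73.7% to 92.9%), and limma's adjusted p was 0.228. The Cre plus arrays lay close together, with an SD of 0.042 against 0.094 in Cre minus, and Cre plus B did not stand apart here. The 2 other Ccnd3 probe sets were near background. On 1438805_at values ran from 3.36 to 3.56 and on 1444323_at from 2.20 to 2.23, with the groups overlapping on each.

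The RefSeq promoter table (GRCm38.p6) held windows for 6 of the 10 genes, Ccnd3, Cdk4, Cdk6, Cdkn1b, Cdkn2c and Rbl2. The 250 bases before each of the 2 annotated starts of Ccnd3 are shown because Ccnd3 is the member with a window whose groups did not overlap. The first is at chr17:47504801-47505050 and the second at chr17:47593217-47593466, each on the plus strand. Capitals mark GGGCGG, the core of Sp1 sites, on either strand.
Ccnd3 first start: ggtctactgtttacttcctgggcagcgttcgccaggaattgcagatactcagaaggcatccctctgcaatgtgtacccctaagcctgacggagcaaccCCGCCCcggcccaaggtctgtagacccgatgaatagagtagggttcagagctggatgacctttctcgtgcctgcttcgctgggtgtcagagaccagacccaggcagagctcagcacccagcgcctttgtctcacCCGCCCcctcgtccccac
Ccnd3 second start: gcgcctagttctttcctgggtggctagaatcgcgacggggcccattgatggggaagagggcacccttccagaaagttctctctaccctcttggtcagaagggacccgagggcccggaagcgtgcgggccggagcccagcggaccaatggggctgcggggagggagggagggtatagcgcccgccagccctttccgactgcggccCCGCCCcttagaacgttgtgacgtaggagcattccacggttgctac

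In these windows, the letters searched on both strands were TTCNNNGAA (STAT factors), TGANTCA (AP-1), TTTNGCGC (E2F), CACGTG (E box, the site of Myc), GGGCGG (Sp1) and TTGTTTAC (FOXO). No match to any of these overlapped another in the Ccnd3 windows. GGGCGG occurred 2 times before the first Ccnd3 start and 1 time before the second, and the other motifs were not in these windows. Over all 32851 windows of the table, GGGCGG was present in 32.7%, TTCNNNGAA in 7.02%, TGANTCA in 6.75%, CACGTG in 6.02%, TTTNGCGC in 1.13% and TTGTTTAC in 1.07%. Among the other members, Cdk4 had CACGTG 4 times and GGGCGG 1 time, Cdk6 had CACGTG 1 time and Cdkn1b GGGCGG 1 time. Cdkn2c had GGGCGG 3 times before 1 of its 2 starts, and the Rbl2 window held none of the 6 motifs. A match is a description of the letters, and a window without one says nothing of the factor.

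Ccnd2 encodes cyclin D2, which is prominent in blood and immune cells and in the ovary. Of its 7 probe sets, 3 were tested and none had an interval away from 0. On the brightest, 1455956_x_at, a kind of probe set that can bind related transcripts, the values were 5.93, 5.90 and 5.84 for Cre minus and 5.59, 5.85 and 5.74 for Cre plus. Cre plus B lay within the Cre minus range and Cre plus A and C below it, with a log2 fold change of -0.17 ± 0.08 (SE; limma's adjusted p = 0.440). The other tested probe sets were 1430127_a_at and 1416123_at, the second just over the filter at 4.13 to 4.54. Their log2 fold changes were -0.0045 ± 0.07 and 0.07 ± 0.12. The sign of the first turned without Cre minus B, Cre plus A or Cre plus C and with the arrays shifted to a common median, and that of the second without Cre plus C.

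The 4 Ccnd2 probe sets under the filter were near background in most arrays. On 3 of them Cre plus B was the highest array. It had 4.36 on 1416122_at, where the 5 other arrays ran from 3.03 to 3.45. It had 3.17 on 1434745_at against 2.41 to 2.48 elsewhere, and 3.76 on 1416124_at against 3.52 to 3.54 elsewhere. The fourth, 1448229_s_at, ran from 3.51 to 3.60 and Cre plus B was within that range. These values are a description of 1 array near background.

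Cdk4 and Cdk6 encode the catalytic partners of the D cyclins. The 3 Cdk4 probe sets had small differences between the groups. On 1422441_x_at they were 6.74, 6.67 and 6.81 for Cre minus and 6.68, 6.61 and 6.70 for Cre plus. On 1422439_a_at they were 6.65, 6.65 and 6.57 against 6.64, 6.65 and 6.72. The groups overlapped on each.

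The log2 fold changes of these Cdk4 probe sets were -0.07 ± 0.06 and 0.04 ± 0.05 (SE), with 95% intervals of -0.22 to 0.08 and -0.09 to 0.18. On 1422440_at the Cre plus values of 6.18, 6.18 and 6.19 were very close to each other, while Cre minus had 6.19, 6.41 and 6.34. The overlap on 1422440_at rests on Cre plus C (6.1948) lying just above Cre minus A (6.1933). That log2 fold change was -0.13 ± 0.07 (SE), with a 95% interval of -0.31 to 0.04 and limma's adjusted p = 0.477. It reached an unadjusted p under 0.05 without Cre minus A, when it was -0.19. The lowest bound of the 3 Cdk4 intervals is a Cre plus signal of 80.8% of Cre minus.

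Cdk6 had 2 tested probe sets. On 1455287_at the values were 7.83, 7.65 and 7.84 for Cre minus and 7.74, 7.47 and 7.57 for Cre plus. Cre plus B and C were below every Cre minus array and Cre plus A was not, and the log2 fold change was -0.18 ± 0.09 (SE; 95% interval -0.42 to 0.05, limma's adjusted p = 0.465). Without Cre plus A it was -0.25, at an unadjusted p under 0.05. On 1435338_at the log2 fold change was -0.03 ± 0.08, with values from 6.83 to 7.03 in Cre minus and 6.81 to 7.0 in Cre plus, and its sign turned without Cre minus A or without Cre plus B. The third Cdk6 probe set, 1460291_at, lay at 2.14 to 2.16 in 5 arrays and at 2.47 in Cre plus B.

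Cdkn1b encodes p27, a CIP/KIP inhibitor that holds CDK2 complexes inactive in resting cells. Its tested probe set, 1434045_at, had 6.45, 6.69 and 6.37 for Cre minus and 6.53, 6.88 and 6.64 for Cre plus. Cre plus B was the highest array and Cre minus B the highest of its group, and the groups overlapped. The log2 fold change was 0.18 ± 0.13 (SE), with a 95% interval of -0.13 to 0.49 and limma's adjusted p = 0.582. It was 0.081 without Cre plus B and 0.27 without Cre minus B. The other Cdkn1b probe set, 1419497_at, was near background at 2.79 to 2.81 in all 6 arrays.

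The remaining inhibitors gave no signal over background. Cdkn1c encodes p57, a CIP/KIP inhibitor of embryonic tissues that is expressed from the maternal allele. Its 1 probe set, 1417649_at, ran from 2.58 to 2.66 in Cre minus and from 2.64 to 2.70 in Cre plus. Cdkn2c encodes the INK4 inhibitor p18, and its 1 probe set, 1416868_at, ran from 1.83 to 1.99 in Cre minus and from 1.82 to 1.84 in Cre plus. A difference in these genes was not detectable at this signal.

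Rb1 and Rbl2 encode pocket proteins that bind E2F factors and are the targets of the D cyclin kinases. Rb1, the retinoblastoma gene, had 6.38, 6.44 and 6.33 on 1417850_at for Cre minus and 6.74, 6.31 and 6.07 for Cre plus. The Cre plus arrays lay on either side of Cre minus, with an SD of 0.34 against 0.056, and the log2 fold change was -0.01 ± 0.17 (SE; 95% interval -0.43 to 0.41). Its sign turned without Cre minus B, Cre plus B or Cre plus C and with array weights. The other Rb1 probe set, 1444400_at, was near background at 2.50 to 2.53.

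Rbl2 encodes p130, the pocket protein that is most abundant in resting cells. Its brighter probe set, 1425981_a_at, had 7.02, 6.56 and 6.84 for Cre minus and 6.64, 6.87 and 6.60 for Cre plus. The dimmer, 1418146_a_at, had 4.98, 5.31 and 5.04 against 5.31, 5.08 and 5.27. The groups overlapped on each, and the means differed in opposite directions, with log2 fold changes of -0.11 ± 0.14 and 0.11 ± 0.11 (SE). The 95% intervals were -0.45 to 0.24 and -0.17 to 0.39. Without Cre minus A the brighter probe set had a log2 fold change of 0.00048, and the dimmer 0.044. Without Cre minus B they had -0.23 and 0.21.

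Leaving out single arrays changed the size of the cyclin D1 difference but not its sign. For 1417420_at the log2 fold change was smallest without Cre plus A (-0.58) and largest without Cre plus B (-0.79). For 1448698_at it ran from -0.80 without Cre minus C to -1.04 without Cre minus B. For Ccnd3 it ran from -0.23 without Cre minus A to -0.32 without Cre minus C. Limma's adjusted p for 1417420_at was lowest, at 0.0841, without Cre plus B, and for 1448698_at it was lowest, at 0.0634, with a filter over 6 (log2). Neither passed under any alternative that was run.

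**Figure D4:**
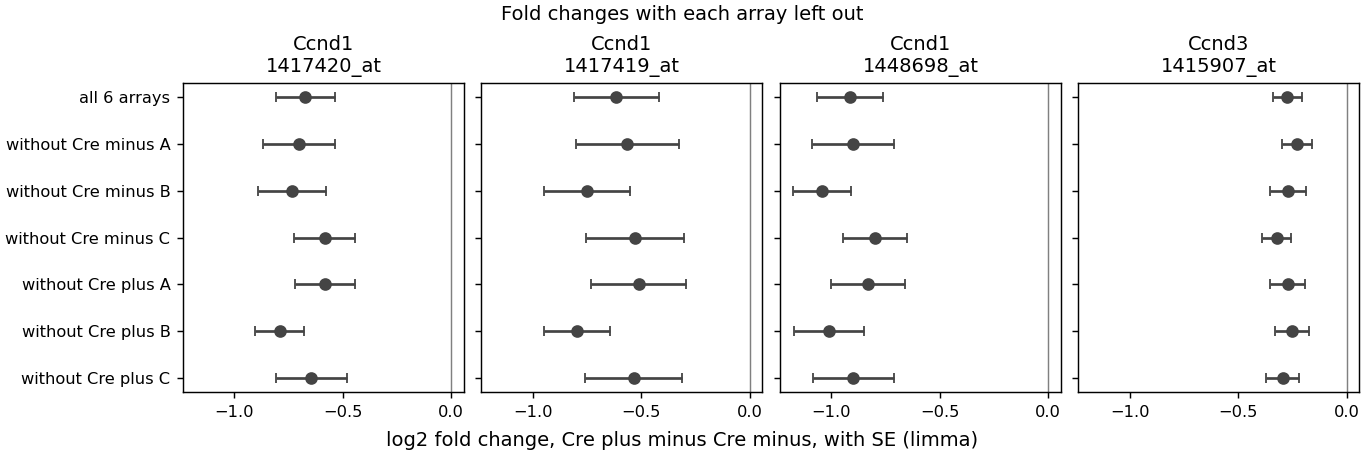
Log2 fold change, Cre plus minus Cre minus (SE from limma as bars), for the 3 Ccnd1 probe sets and the tested Ccnd3 probe set, with all 6 arrays (top line) and with each array left out. All points lie below 0. The Ccnd1 values are largest in size without Cre plus B or without Cre minus B.

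Other genes of the G1 pathway were read from lists made from textbook knowledge, with each gene taken from its brightest tested probe set. These lists too were made with earlier results of these data known, so their counts are a description. Of 67 listed genes, 40 had a tested probe set, and 0 passed an adjusted p under 0.05 in limma. With no adjustment, 4 had higher and 0 had lower values at p under 0.05, beside 6.59% higher and 8.10% lower of the 8554 genes measured in the same way. In all 22 were higher and 18 lower. The median log2 fold change was 0.01, beside -0.0087 over all 8554.

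In the list of cyclin E, CDK2 and E2F genes, which act after the D cyclin kinases, 10 of 15 were measured, with 5 higher, 5 lower and a median log2 fold change of 0.0060. E2f8, an E2F that represses transcription, was higher at an unadjusted p under 0.05 (0.31 ± 0.09 SE), with 6.55, 6.76 and 6.61 for Cre plus and 6.32, 6.22 and 6.45 in Cre minus. Its groups did not overlap. Cdk2, the kinase partner of cyclin E, had 0.34 ± 0.21 and E2f6, also a repressor, -0.14 ± 0.09. The cyclin E genes Ccne1 and Ccne2 had 0.01 ± 0.05 and -0.0024 ± 0.05, and were chosen after their values were seen. Their values were low and flat, at 5.42 to 5.46 for Ccne1 and 4.51 to 4.54 for Ccne2, near the filter. A difference in the cyclin E genes may not be detectable at this signal.

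Genes that degrade p27 or D cyclins made up 3 of the 4 higher genes. All 11 listed genes were measured, with 7 higher, 4 lower and a median of 0.19. Cul1, the scaffold of the SCF ubiquitin ligase, had 0.20 ± 0.05 (SE). Ddb1, an adaptor of the CUL4 ligase, had 0.22 ± 0.06, and Cks1b, the cofactor that lets SKP2 recognise p27, had 0.22 ± 0.06. The groups did not overlap for these 3 genes. They also did not overlap for Skp1, the linker of the SCF ligase, which had -0.16 ± 0.08 and was lower in Cre plus. Skp1 was chosen after its values were seen. Skp2 itself, chosen after its values were seen, had -0.0061 ± 0.05 at a mean log2 value near the filter (4.35 in Cre plus).

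Other regulators gave smaller counts. Of the other CDK inhibitors, Cdkn1a (p21, a CIP/KIP inhibitor) was the 1 of 4 that was measured, and had 8.41, 8.89 and 8.72 for Cre minus and 9.11, 8.73 and 9.91 for Cre plus. Its log2 fold change was 0.57 ± 0.31 (SE), and Cre plus B was inside the Cre minus range. The CDK-activating kinase genes Cdk7, Mnat1 and Ccnh had 0.15 ± 0.10, -0.04 ± 0.05 and -0.03 ± 0.08, with 1 higher and 2 lower. Of the 6 listed genes of the MuvB core and B-Myb (Mybl2), 3 were measured. Lin37 had -0.12 ± 0.06, Lin54 0.14 ± 0.11 and Rbbp4 -0.08 ± 0.08. The MuvB core silences cell cycle genes together with p130. Of 8 transcription factors that act on D cyclin or p27 genes, 5 were measured with 4 higher and 1 lower, among them Foxo1 (0.28 ± 0.16), Myc (0.13 ± 0.10) and Ctnnb1 (0.10 ± 0.07). None of these lists had a gene at an unadjusted p under 0.05.

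Of the 20 listed S phase and mitosis genes, 7 had a tested probe set, 3 higher and 4 lower with a median of -0.03, and none had an unadjusted p under 0.05. Ccna2, Ccnb2, Cdk1, Mki67, Top2a, Plk1 and Aurkb, which mark S phase to mitosis, were among the 13 with no tested probe set. Pcna, the sliding clamp of DNA polymerase, had -0.07 ± 0.09 (SE), and the replicative helicase genes Mcm7 and Mcm3 had -0.26 ± 0.16 and 0.17 ± 0.18.

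**Figure D5:**
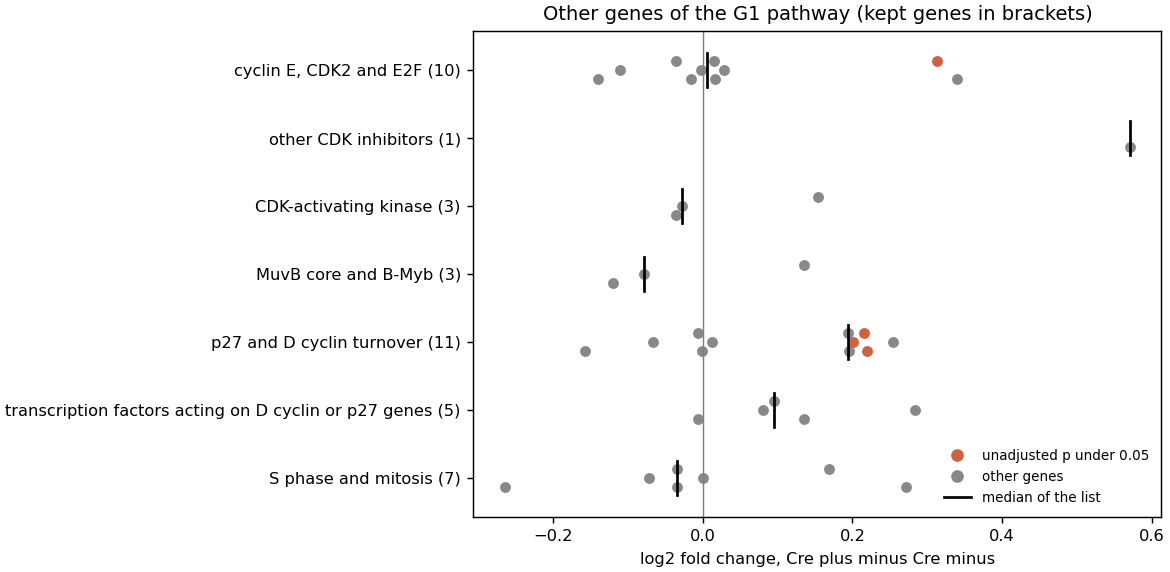
Log2 fold change, Cre plus minus Cre minus (horizontal axis), of each measured gene of the other G1 lists (1 point a gene, 1 list a line), with the list's median as a black bar and genes at an unadjusted p under 0.05 in orange. The 4 orange points are E2f8, Cul1, Ddb1 and Cks1b, all above 0.

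In RNA from whole liver, fewer cells of a type and less RNA per cell cannot be told apart. Some markers of other cells were also lower in value in Cre plus. None of the cell type markers passed an adjusted p under 0.05 in limma. At an unadjusted p under 0.05, 8.1% of all 8554 genes measured in the same way were lower. Of 9 Kupffer cell and macrophage markers, 9 were lower (Adgre1, Clec4f, C1qa, Vsig4 and Csf1r with an unadjusted p under 0.05), and their mean log2 value was 8.09 to 8.22 in Cre minus and 7.69 to 7.89 in Cre plus, with 7.80 in Cre plus B. Of 8 endothelial markers 7 were measured and 6 were lower (Tek and Eng with an unadjusted p under 0.05), with means of 6.96 to 7.0 in Cre minus and 6.77 to 6.97 in Cre plus. The 1 that was higher, Lyve1, had 5.69, 6.79 and 5.93 for Cre minus and 8.07, 6.04 and 7.02 for Cre plus (0.91 ± 0.56 SE), and Cdh5 had no tested probe set. Stellate cell markers were 4 higher and 4 lower, with means of 6.74 to 6.86 in Cre minus and 6.64 to 6.99 in Cre plus. Ptprc, a marker of leukocytes, had 5.53 to 5.73 in Cre minus and 5.29 to 5.70 in Cre plus, and the T cell markers Cd3e, Cd3g and Cd2 had no tested probe set.

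Of 6 neutrophil markers, S100a8 and S100a9 were measured, with a mean of 8.13 to 8.20 in Cre minus and 7.92 to 9.66 in Cre plus, highest in Cre plus A. Of 6 cholangiocyte markers Sox9 was measured (5.60 to 5.95 in Cre minus, 5.94 to 6.70 in Cre plus), and Krt7, Krt19, Epcam, Spp1 and Cftr had no tested probe set. Of 4 erythroid markers Alas2 was measured (8.32 to 8.45 in Cre minus, 8.21 to 8.64 in Cre plus). The part of these cells in the Ccnd1 and Ccnd3 values was not tested.

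The genes whose pattern over the 6 arrays was most like that of Ccnd1 (1417420_at) were taken among 1647 genes with an SD of at least 0.25. The highest Pearson correlations were those of Nuak2, a stress-activated kinase (0.986), Fcgr2b, an Fc receptor of sinusoidal endothelium and macrophages (0.982), and D130020L05Rik (0.974). The lowest were those of Abca1, the cholesterol exporter (-0.985), Bmper, a secreted BMP regulator (-0.985), and Tpd52 (-0.981). D130020L05Rik lay near the filter, at 4.27 to 4.45 in Cre minus and 3.68 to 4.03 in Cre plus, with Cre plus A and C under 4. In each of these 6 genes Cre plus B lay between the other Cre plus arrays and all Cre minus arrays, as on this Ccnd1 probe set. The genes were picked by their correlation with this probe set over the same 6 arrays. The shared order therefore largely follows from the choice and is no further observation. With 6 arrays in 2 groups, the group difference enters these correlations, and they are given as a description of likeness only.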

How the data were processed

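The authors deposited log2 GCRMA values (sources used here give no GCRMA version), 1 per probe set and array, from Mouse Genome 430 2.0 arrays hybridized with 2 ug of total RNA, per the labels. GCRMA corrects background by probe sequence and normalizes between arrays, and low values are compressed. Symbols came from the platform annotation, and 0 changed through the Entrez ID against RefSeq (GRCm38.p6). Of 45101 probe sets, 932 had several symbols, 9211 none and 64 were controls. Those over 4 (log2) in 3 or more arrays (15563) were tested with limma 3.58.1 (R 4.3.3; lmFit, eBayes, no block, two-sided, Benjamini-Hochberg over all tested). Arrays have no read depth, and their number limits the precision. Members and lists were chosen with earlier results of these data known. The named genes are all members, up to 4 per pathway list past the adjusted threshold or the 3 with the smallest p, and the 3 genes most and least like Ccnd1. Socs3 was named as the targeted gene. Ccne1, Ccne2, Skp1, Skp2, the untested S phase and mitosis genes and the cell type markers were named outside this rule. Deviations from the group mean in same-lettered arrays correlated at -0.091, -0.094 and 0.013 for A, B and C. With 3 arrays in each group, centred on their own mean, these values cannot settle whether the letters are pairs. The labels do not state a pairing, and the letters were not taken as pairs. No scan date is in the sources used here.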

Additional observations from a re-analysis of the deposited data

How the results depend on the processing

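The alternatives were a filter over 6 (log2), no filter, quantile normalization, arrays moved to 1 median, an intensity trend with robust prior, array weights, a replicate block, each array left out, 1 probe set a gene and no _x_at or _s_at probe sets. In all of them 0 member probe sets passed an adjusted p under 0.05. Over all probe sets 2 passed, against 55 with the filter over 6, 0 with no filter or the replicate block, 3 with a common median, the trend or no _x_at or _s_at, and 0 to 23 with an array left out (23 without Cre plus B). The count at an unadjusted p under 0.05 was 4, or 3 to 5 with an array left out, 3 with the replicate block (1417419_at of Ccnd1 was lost) and 2 with 1 probe set a gene, where 8 member probe sets are tested. The log2 fold changes of Ccnd1 and Ccnd3 kept their sign throughout. Of 226 fold changes under alternatives, 214 kept the sign and 12 reversed, all of them of probe sets with a log2 fold change between -0.11 and 0.07. Rb1 became 0.065 with array weights and Ccnd2 1430127_a_at 0.0044 with a common median. With arrays left out, the ranges were -0.047 to 0.15 for Ccnd2 1416123_at, -0.068 to 0.037 for Ccnd2 1430127_a_at, -0.19 to 0.14 for Rb1, -0.089 to 0.025 for Cdk6 1435338_at and -0.23 to 0.00048 for Rbl2 1425981_a_at. Signal over background limits the 11 untested probe sets.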
